A study of Homo sapiens with 8 samples.

Results

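5S rRNA is the small RNA of the large ribosomal subunit that is made apart from the other rRNAs. In human cells it is transcribed by RNA polymerase III from a tandem gene cluster on chromosome 1, with TFIIIA bound to a promoter that lies inside the gene, and it enters the ribosome as a particle with the proteins RPL5 and RPL11. Many shortened or mutated copies, annotated as pseudogenes, are scattered over the genome and keep stretches of the 5S sequence. The entries described here are the 5S entries of a small RNA count table, chosen by name (RNA5S followed by a digit, RNA5SP, or 5S_rRNA followed by a number). They number 170 of the 2962 features in the table: 17 are the cluster genes RNA5S1 to RNA5S17, 148 are RNA5SP copies and 5 are 5S_rRNA entries.

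The table compares HEK293 cells, a line derived from human embryonic kidney, given a mimic of a fragment from the 3′ end of tRNA-Asp-GTC (a tDR, or tRNA-derived RNA; 4 libraries) with the same line given a scramble mimic (4 libraries). All 8 samples received 50 nM of a mimic with Lipofectamine RNAiMax and were collected after 48 h. RNA was taken with TRIzol and sequenced with OTTR-seq, a small RNA method in which a reverse transcriptase adds the adapters without ligation. The labels number the libraries 1 to 4 in each group but do not say whether they came from separate cultures, so the spread behind each p-value is that of these libraries and can be technical. Transfection of the scramble mimic is part of the baseline, and untransfected cells are not compared here.

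The cluster genes and the copies are close in sequence, which bears on every count that follows. Compared through GENCODE release 29 transcripts on GRCh38, with positions counted from 1 at the 5′ end of RNA5S1, 16 cluster genes have the same 119 bases and RNA5S9 differs from them at 1 base. Among the copies with high counts, RNA5SP202 also differs from RNA5S1 at 1 base, RNA5SP162 is a 44-base piece of it that lies 51.9 kb from RNA5S1 on chromosome 1, RNA5SP248 (chr7:140386781-140386907, minus strand, in an intron of SLC37A3) keeps its 3′ end and RNA5SP389 keeps its first 90 bases. Among the called copies, RNA5SP352 (chr11:124636459-124636592, plus strand) overlaps an exon of SIAE, RNA5SP225 (chr6:153420438-153420572, plus strand) and RNA5SP481 (chr20:32008351-32008472, plus strand) lie outside protein-coding genes, and RNA5SP435 lies in an intron of KIAA0753.

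Of the 170 entries, 165 were placed by name in the annotation. All 148 RNA5SP copies were placed, on 22 chromosomes, and 74 of them lie in introns of protein-coding genes, 68 outside such genes and 6 over an exon. The 5 5S_rRNA entries were not placed here and carry no sequence. Aligned to RNA5S1, the RNA5SP copies match a median of 79.8% of its bases (29.4% to 99.2%), and their longest exact run has a median of 25 bases (13 to 92).

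Total counts were 6910186 to 8007025 in the tDR libraries and 4016295 to 10246336 in the scramble libraries, and 3 counts, the limit that a count of 0 allows, were at most 7.47e-05% of a library. HEK293 identity was looked at through 9 microRNAs of kidney or of this line, all of which had counts: their summed level was 526 to 958 CPM in tDR libraries and 949 to 1380 CPM in scramble libraries. CPM here is the count scaled to library depth, with the depth adjusted by TMM (trimmed mean of M values) factors. Of 7 blood microRNAs 2 had counts (1.09 to 1.25 CPM in tDR libraries, 0 to 1.52 CPM in scramble libraries), both endothelial ones had counts (5.28 to 9.94 CPM in tDR libraries, 4.32 to 6.51 CPM in scramble libraries), and the liver microRNA was at 0 in all libraries. Muscle microRNAs (2 of 3 with counts) summed to 1.54 to 3.81 CPM in tDR libraries and 0.254 to 2.09 CPM in scramble libraries, and neural ones (3 of 3) to 36.7 to 64.3 CPM in tDR libraries and 45.9 to 69.2 CPM in scramble libraries. The ranges of the kidney list overlap narrowly, and its part in the 5S results was not tested.

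The cluster genes had nearly identical counts. Of the 17, 14 had the same count in every library, and RNA5S15 and RNA5S16 differed from them by 1 count in tDR library 1 only, while RNA5S9, with its single different base, stood apart. Over all 170 entries, taking those with equal counts once left 154 sets, and taking once those within 10% or 3 counts, in every library, of the entry with the highest mean count in their set left 119. Whether a read that matches several entries was counted at each or divided among them is not stated. The entries of a set are therefore not independent measurements, and the table does not say at which copy an RNA was made, nor whether it was whole 5S rRNA or a fragment of it. Fewer cells that make an RNA and less RNA per cell cannot be told apart in these bulk samples either.

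The 5S cluster was not called different between tDR and scramble libraries by edgeR, with TMM scaling or with total counts in its place. Its plain share of counts was lower in tDR libraries. RNA5S1, which stands for the cluster, had 7879, 9036, 8406 and 6820 CPM in tDR libraries and 9273, 9044, 7812 and 7828 CPM in scramble libraries. The groups overlap, with means of 8035 ± 938 CPM in tDR libraries and 8489 ± 778 CPM in scramble libraries (SD, n = 4 each). In edgeR's quasi-likelihood test the log2 fold change was -0.08 (SE 0.13, adjusted p = 0.812). When libraries were scaled on microRNAs alone it was 0.24 (adjusted p = 0.547), a scaling that also moved the median of all 1761 tested features to 0.36 against 0.02 under TMM.

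As a plain share of a library's counts, RNA5S1 made up 0.837%, 0.765%, 0.755% and 0.687% of the tDR libraries and 0.887%, 0.935%, 0.867% and 0.878% of the scramble libraries. Every tDR library lay below every scramble library on this measure, which does not use TMM. The totals leave out the entries scr and scr2, which are not genes, but no tRNA entry. Any reads of the tDR mimic that were counted in tRNA entries therefore stay in the totals of the tDR libraries and lower this share there. How much of the difference comes from them was not tested. The means were 0.761 ± 0.061% in tDR libraries and 0.892 ± 0.030% in scramble libraries (SD, n = 4 each), with an exact two-sided permutation p of 0.0286, the smallest that 70 arrangements can give. Unlike the p of edgeR, that value is not adjusted over the tested features. Exact binomial 95% intervals of the single libraries, which cover counting error only, spanned 0.681% to 0.693% in the lowest tDR library and 0.857% to 0.876% in the lowest scramble library. With nearly equal entries of every family counted once in the total, the shares were 1.98 ± 0.22% in tDR libraries and 2.26 ± 0.064% in scramble libraries, and the same exact permutation test gave p = 0.0571.

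RNA5S9, the cluster gene with 1 different base, had 4733, 5293, 4030 and 3374 CPM in tDR libraries and 4483, 4935, 4288 and 4848 CPM in scramble libraries. The tDR libraries hold both its highest and its lowest value. Its log2 fold change was -0.09 (SE 0.14, edgeR adjusted p = 0.812). Set against RNA5S1, which has the same length, its count was 48.0% to 60.1% of that of RNA5S1 in tDR libraries and 48.4% to 61.9% in scramble libraries, ranges that almost coincide.

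**Figure D1:**
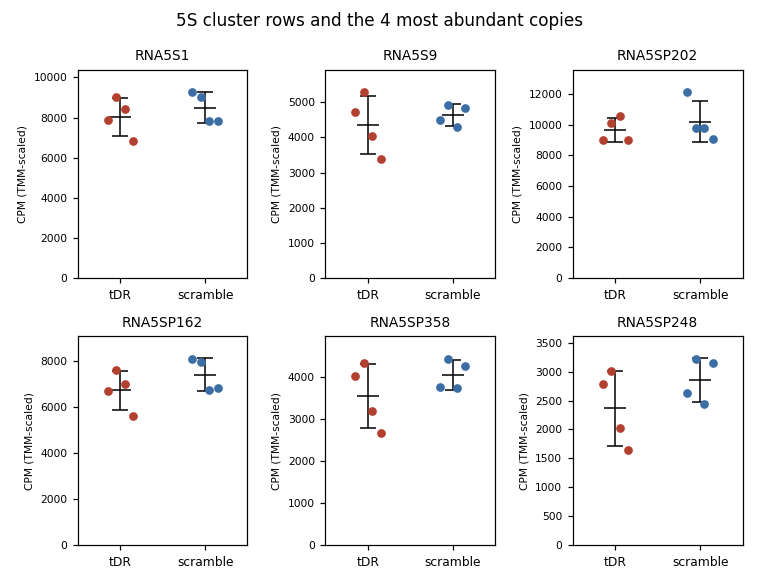
TMM-scaled CPM (y axes, from 0, a scale per panel) of RNA5S1, RNA5S9 and the 4 copies with the highest counts in 4 tDR and 4 scramble libraries; points are libraries and bars the mean ± SD. The groups overlap in all 6 panels, and RNA5S1 lies between 6820 and 9273 CPM.

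The copies with the highest counts followed the cluster. RNA5SP202, with its single different base, had 8993, 10130, 10527 and 9010 CPM in tDR libraries and 12120, 9773, 9758 and 9089 CPM in scramble libraries. It had more counts than RNA5S1 in all 8 libraries, although it is annotated as a pseudogene of the same length: 112% to 132% of the RNA5S1 count in tDR libraries and 108% to 131% in scramble libraries. The excess over RNA5S1 came to 8183, 7021, 15253 and 15695 counts in tDR libraries and 22430, 7693, 8671 and 14489 counts in scramble libraries, with wide ranges in both groups. Its log2 fold change was -0.08 (SE 0.13, edgeR adjusted p = 0.819).

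RNA5SP162, the 44-base piece that holds bases 66 to 109 of RNA5S1, had 6692, 7581, 6999 and 5588 CPM in tDR libraries and 8090, 7952, 6727 and 6825 CPM in scramble libraries. Its log2 fold change was -0.14 (SE 0.13, edgeR adjusted p = 0.608). Any read of 5S rRNA that lies wholly within those bases has the same letters at both places. Its count was 81.9% to 84.9% of that of RNA5S1 in tDR libraries and 86.1% to 87.9% in scramble libraries. These narrow ranges do not overlap, but with libraries scaled to their RNA5S1 count the difference was not called (edgeR adjusted p = 0.837).

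Next came copies that keep the 3′ end of 5S rRNA. RNA5SP358 (chr12:38161466-38161582), which shares bases 85 to 119, had 4038, 4331, 3193 and 2659 CPM in tDR libraries and 3756, 4438, 3747 and 4256 CPM in scramble libraries (log2 fold change -0.19, SE 0.15, edgeR adjusted p = 0.52). RNA5SP248, which shares bases 93 to 119, had 2786, 3015, 2020 and 1636 CPM in tDR libraries and 2622, 3224, 2432 and 3145 CPM in scramble libraries (log2 fold change -0.27, SE 0.18, edgeR adjusted p = 0.392). In both, tDR libraries 3 and 4 are the lowest of the 8. RNA5SP426, which shares bases 97 to 119, had 793.9, 756.5, 726.8 and 595.5 CPM in tDR libraries, all below the 941.8, 846.2, 844.5 and 876.4 CPM of the scramble libraries, yet it was not called (log2 fold change -0.29, SE 0.15, edgeR adjusted p = 0.262). The direction of all 5 of these copies and of the cluster genes turned when libraries were scaled on microRNAs alone, to 0.26 for RNA5SP202, 0.18 for RNA5SP162, 0.12 for RNA5SP358, 0.03 for RNA5SP248 and 0.04 for RNA5SP426, none called.

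Of the 170 entries 107 had enough counts to be tested: all 17 cluster genes, 86 RNA5SP copies and 4 5S_rRNA entries. The 63 not tested (62 RNA5SP copies and 5S_rRNA.23) had mean counts of 0.75 to 10.9 per library, and the lowest mean among those tested was 8.75. No entry was at 0 in all libraries. With edgeR's quasi-likelihood test and Benjamini-Hochberg adjustment over all 1761 tested features, 14 tested 5S entries (13.1%) were higher in tDR libraries, where 5.34% of all tested features were. 3 (2.8%) were lower, where 1.36% of all tested features were. In either direction 6.7% of all tested features were called. All 17 calls were copies, and no cluster gene was called. The median log2 fold change of the tested 5S entries was -0.08, beside 0.02 over all features; 38 of them lay above 0 and 69 below, or 37 and 55 with a median of -0.10 when entries with equal counts, mostly cluster genes, are taken once. Under scaling on microRNAs alone both medians were above 0, at 0.24 and 0.36.

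In counts of libraries rather than adjusted p, 17 of the tested entries had all 4 tDR libraries above all 4 scramble libraries (background 7.78% of all features) and 5 had them all below (background 5.51%). The 14 higher entries fall into 9 sets with nearly equal counts, and the 3 lower ones into 3. When such sets were taken once across the whole table, 10 of 78 5S sets (12.8%) were called higher against 6.25% of all, and 0 were called lower against 1.13% of all.

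**Figure D2:**
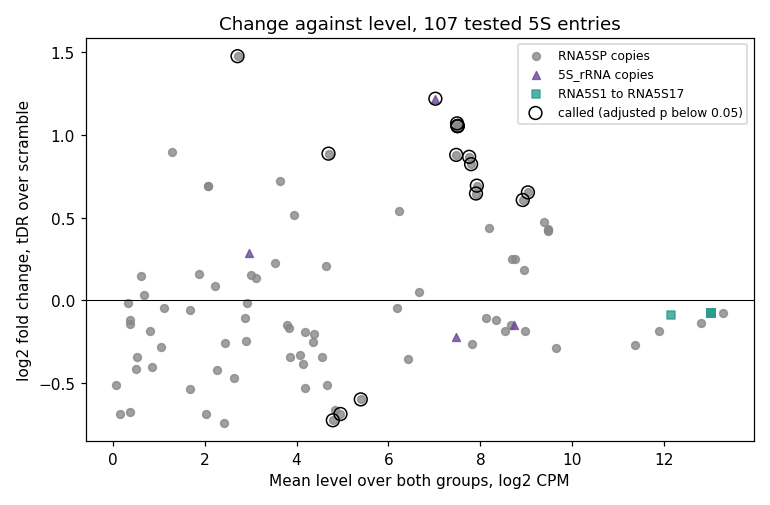
Log2 fold change, tDR over scramble (y axis), against mean level in log2 CPM (x axis) for the 107 tested 5S entries by class, with called entries marked. The 17 cluster genes sit just below 0 at the right (above 0 when libraries are scaled on microRNAs alone), and the called copies lie at lower levels, from -0.73 to 1.48.

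The smallest p among the 5S entries belonged to 5S_rRNA.18, which was not placed in the annotation here. It had 140.2, 221.8, 199.7 and 164.5 CPM in tDR libraries and 85.81, 71.55, 71.38 and 82.86 CPM in scramble libraries. Every tDR library exceeded every scramble library, with means of 182 ± 36.3 CPM and 77.9 ± 7.53 CPM (SD, n = 4 each). Its log2 fold change was 1.22 (SE 0.16, edgeR adjusted p = 4.7e-05), and it stayed called under each of the 20 alternatives run. Of the other tested 5S_rRNA entries none was called: 5S_rRNA.19 stood at 0.28, 5S_rRNA.20 at -0.23 and 5S_rRNA.21 at -0.15 on the log2 scale, the last with counts nearly equal to those of RNA5SP469.

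A set of 5 RNA5SP copies on different chromosomes had nearly the same counts and was higher by about the same amount. RNA5SP352 had 197.0, 285.6, 271.9 and 226.1 CPM in tDR libraries and 141.0, 104.1, 106.2 and 120.4 CPM in scramble libraries (edgeR log2 fold change 1.05 with SE 0.16 and adjusted p = 0.000239). RNA5SP225 had 197.4, 285.7, 271.2 and 227.9 CPM in tDR libraries and 140.9, 105.1, 106.2 and 120.5 CPM in scramble libraries, nearly those of RNA5SP352 in every library. Both hold bases 38 to 89 of RNA5S1 without a change and differ from each other before and after them. RNA5SP502 (chrX:41292798-41292916; log2 fold change 1.05, adjusted p = 0.000243), RNA5SP259 (1.07, adjusted p = 0.000198) and RNA5SP387 in an intron of FLVCR2 (0.88, adjusted p = 0.00111) belong to the same set, with p from the same edgeR test. The counts of the other 4 lie within 10% or 3 counts of those of RNA5SP225 in every library, so the 5 calls are not independent.

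Some copies that hold a longer stretch of the same interior were also called higher. Others were not called, such as RNA5SP202 (bases 28 to 119, log2 fold change -0.08) and RNA5SP389 (bases 1 to 90, 0.42). RNA5SP481, which shares bases 29 to 90 of RNA5S1, had 222.7, 323.9, 312.2 and 256.5 CPM in tDR libraries and 192.8, 133.0, 134.2 and 150.9 CPM in scramble libraries (log2 fold change 0.87, SE 0.17, edgeR adjusted p = 0.00278). RNA5SP161, in an intron of KIAA1211, had nearly the same counts (0.82, SE 0.17, adjusted p = 0.00413). RNA5SP298, in an intron of DIP2C, had 238.9, 352.2, 336.3 and 270.7 CPM in tDR libraries and 227.6, 163.8, 167.0 and 182.3 CPM in scramble libraries (0.69, SE 0.17, adjusted p = 0.0144). In RNA5SP481, RNA5SP161 and RNA5SP298 the highest scramble library is number 1 each time, and it stays below the lowest tDR library.

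RNA5SP226 (chr6:165409562-165409676, in an intron of PDE10A), which shares bases 8 to 90, had 580.4, 760.7, 648.2 and 568.8 CPM in tDR libraries and 451.4, 352.8, 387.2 and 435.9 CPM in scramble libraries (log2 fold change 0.65, SE 0.16, edgeR adjusted p = 0.0161). RNA5SP429, in an intron of the cadherin gene CDH1, shares bases 4 to 79 and had 535.5, 725.0, 574.8 and 502.4 CPM in tDR libraries and 414.8, 332.4, 372.4 and 415.5 CPM in scramble libraries (0.61, SE 0.16, adjusted p = 0.0265). Both calls were lost with total counts in place of TMM, and when leaving out tDR library 2, scramble library 2 or scramble library 3 (adjusted p up to 0.0678 for RNA5SP226 and 0.0936 for RNA5SP429 with a library left out). RNA5SP298 lost its call without scramble library 2, 3 or 4 (adjusted p up to 0.0777). With the library number added to the fit as a block, RNA5SP226, RNA5SP429, RNA5SP298, RNA5SP161 and RNA5SP481 all lost their calls.

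3 higher copies share shorter runs. RNA5SP48, in an intron of RAB3B, shares bases 64 to 90 and had 294.6, 349.4, 267.4 and 256.4 CPM in tDR libraries and 172.0, 165.7, 191.2 and 217.3 CPM in scramble libraries (log2 fold change 0.65, SE 0.15, edgeR adjusted p = 0.0144); its adjusted p was 0.0875 with total counts in place of TMM and 0.0632 without scramble library 2. RNA5SP50 (chr1:73749517-73749623), which shares bases 38 to 69, had 28.88, 50.63, 30.32 and 24.84 CPM in tDR libraries and 17.14, 17.63, 18.18 and 19.67 CPM in scramble libraries (0.89, SE 0.20, adjusted p = 0.0115). Both RNA5SP48 and RNA5SP50 lost their calls with the block on library number. RNA5SP257, in an intron of LZTS1, had few counts: 52, 93, 63 and 62 in tDR libraries and 29, 43, 11 and 39 in scramble libraries. Its log2 fold change of 1.48 (SE 0.27, adjusted p = 0.00154) was the highest of all tested 5S entries, with all tDR libraries above all scramble libraries after scaling for depth.

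**Figure D3:**
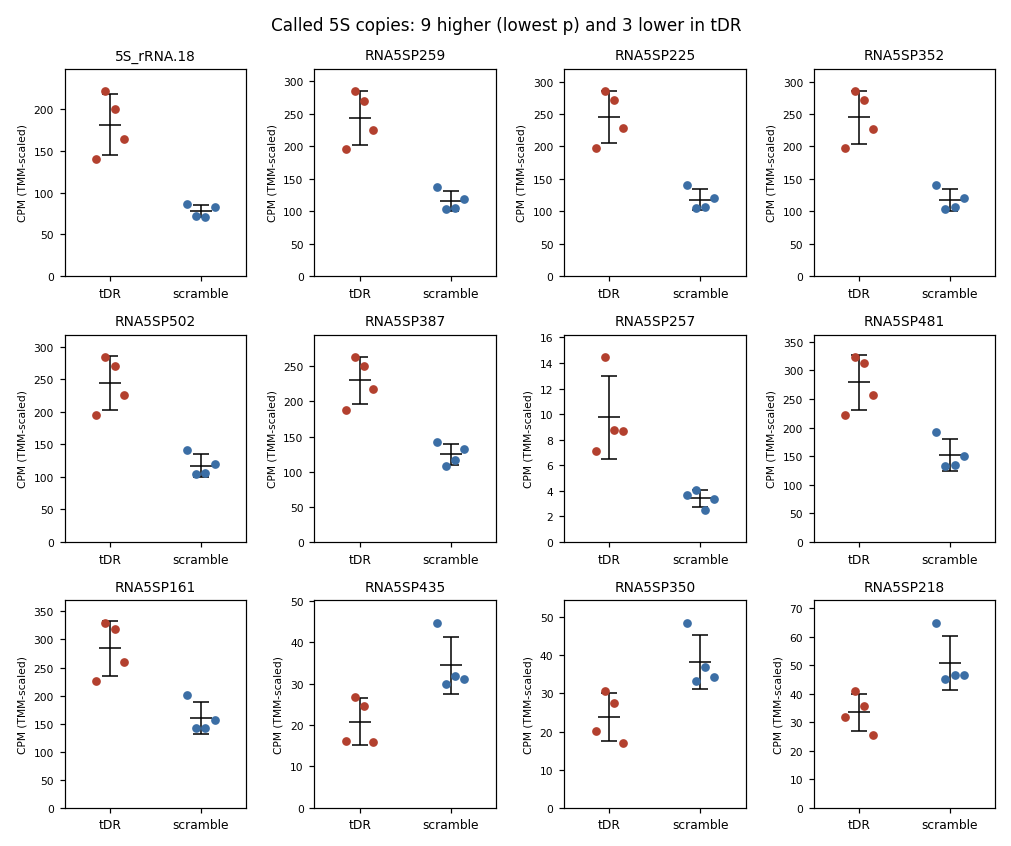
TMM-scaled CPM (y axes, from 0, a scale per panel) of called 5S copies in 4 tDR and 4 scramble libraries; points are libraries and bars the mean ± SD. In 5S_rRNA.18 the tDR libraries lie at 140.2 CPM and above and the scramble libraries at 85.81 CPM and below.

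Each of the 3 lower copies had low counts. RNA5SP435 had 16.07, 26.79, 24.62 and 15.91 CPM in tDR libraries and 44.81, 29.95, 31.87 and 31.16 CPM in scramble libraries (log2 fold change -0.73, SE 0.20, edgeR adjusted p = 0.0344). Its longest run, bases 64 to 90, is the same as that of RNA5SP48, which was called higher. RNA5SP350 had 20.16, 30.53, 27.54 and 16.89 CPM in tDR libraries and 48.62, 33.17, 37.04 and 34.38 CPM in scramble libraries (-0.69, SE 0.20, adjusted p = 0.0383). RNA5SP218, in an intron of SGK1 and sharing only bases 1 to 24 as its longest run, had 31.87, 40.82, 35.88 and 25.54 CPM in tDR libraries and 64.99, 45.11, 46.47 and 46.48 CPM in scramble libraries (-0.60, SE 0.18, adjusted p = 0.044). The groups do not overlap in any of them, but the gap is narrow and scramble library 1 is the highest in all 3. RNA5SP263 had the same pattern and was not called (-0.67, adjusted p = 0.0513). Without scramble library 1, without scramble library 4 or without tDR library 4 no 5S entry was called lower, and without scramble library 2 only 1 was.

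The copies with the largest changes that were not called had low counts or overlapping groups. Above 0 these were RNA5SP30 (log2 fold change 0.89, SE 0.37, edgeR adjusted p = 0.165), RNA5SP277 (0.72, adjusted p = 0.0829) and RNA5SP376, whose counts equal those of RNA5SP377 (0.69, adjusted p = 0.143). Below 0 they were RNA5SP486 (-0.74, adjusted p = 0.113), RNA5SP246 (-0.69, adjusted p = 0.23) and RNA5SP103 (-0.69, adjusted p = 0.424), which had a mean of 8.88 counts per library.

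A call in a copy and none in the cluster does not show that the copy and the cluster differ, so the same test was run with every library scaled by its RNA5S1 count. Relative to RNA5S1, 16 of 91 tested entries were higher in tDR libraries (background 6.3%) and 2 were lower (background 0.516%, and 6.82% in either direction). The 16 were the 14 entries above with RNA5SP370 (log2 fold change relative to RNA5S1 0.55, edgeR adjusted p = 0.0435) and RNA5SP242 (0.61, adjusted p = 0.0265). RNA5SP370 has counts nearly equal to those of RNA5SP389, RNA5SP145 and RNA5SP149, which were not called (edgeR adjusted p = 0.0666, 0.0651 and 0.0635), so its call is not a separate measurement. RNA5SP435 and RNA5SP350 stayed lower, while RNA5SP218 was not called (adjusted p = 0.0651). In the clearest case, 5S_rRNA.18, the log2 fold change relative to RNA5S1 was 1.29 (SE 0.17, adjusted p = 5.75e-06). As a percent of the RNA5S1 count, RNA5SP352 stood at 2.50% to 3.32% in tDR libraries and at 1.15% to 1.54% in scramble libraries.

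The copies were also summed, as a description. Counts of 5S copies per count of the cluster genes, with equal entries taken once, were 1.70, 1.73, 1.72 and 1.75 in tDR libraries and 1.68, 1.52, 1.65 and 1.68 in scramble libraries. The cluster count here is the sum of RNA5S1, RNA5S15 and RNA5S9, so the nearly equal counts of RNA5S1 and RNA5S15 both enter it. Nearly equal copies are likewise each counted, so the level of this ratio depends on how many such entries there are. The means were 1.72 ± 0.022 in tDR libraries and 1.63 ± 0.075 in scramble libraries (SD, n = 4 each), without overlap. With nearly equal entries taken once the ratios were 2.48 ± 0.045 in tDR libraries and 2.44 ± 0.094 in scramble libraries, and the groups overlapped.

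What the copies share with RNA5S1 was set beside their changes. The groups of this paragraph were drawn after the values were seen, and so they are described without a test. Of the tested RNA5SP copies, 10 keep an exact run that starts at base 42 or earlier and ends at base 89 or 90 without reaching back to base 1. They make up 5 sets with nearly equal counts, all 10 lay above 0 on the log2 scale and 9 were called higher, with a median of 0.87 (0.54 to 1.07). The 8 copies whose run of at least 30 bases starts at base 1 (4 sets) were also all above 0, but lower, with a median of 0.42 (0.19 to 0.48), and none was called. RNA5SP389, which has bases 1 to 90 of RNA5S1 whole, is one of them: 699.3, 977.1, 861.4 and 723.0 CPM in tDR libraries and 764.6, 506.6, 560.0 and 604.2 CPM in scramble libraries (0.42, SE 0.17, edgeR adjusted p = 0.15).

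The 6 copies whose run also ends at base 90 but begins at base 47 to 60 had a median of 0.06 (-0.39 to 0.23), with 3 above and 3 below 0, none called, and low counts (means of 57.6 to 139 per library). RNA5SP335, which shares bases 48 to 90, had a log2 fold change of 0.13 (edgeR adjusted p = 0.852). All 9 copies whose run reaches base 119, the 3′ end, lay below 0, with a median of -0.19 (-0.43 to -0.08), and none was called. This group has no lower limit on length: its runs hold 14 to 92 bases, and only RNA5SP202 and RNA5SP358 share at least 30. Short runs elsewhere also lay mostly below 0, as given next, so the part of run length was not separated from that of the 3′ end. Copies with other runs of at least 30 bases (12) split evenly around 0, and 2 of them were higher. Among the 41 with a run under 30 bases that does not reach base 119, 2 were higher and 3 lower. Of these 41, 9 lay above and 32 below 0, with a median of -0.25. The groups differ in counts as well as in sequence, and the part of the count level was not tested. Under scaling on microRNAs alone RNA5SP202, RNA5SP358, RNA5SP248 and RNA5SP426, which reach base 119, stood above 0.

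**Figure D4:**
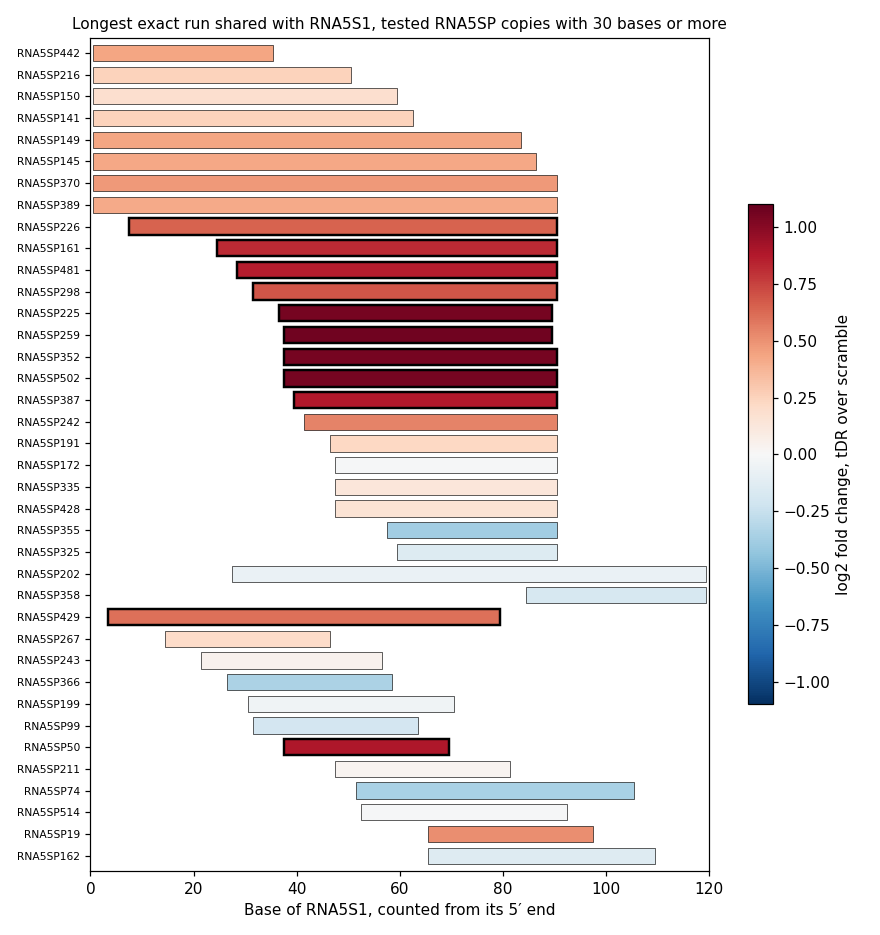
Longest exact run shared with RNA5S1 (x axis, base of RNA5S1 from its 5′ end) for 38 tested RNA5SP copies with at least 30 shared bases (y axis), coloured by log2 fold change, tDR over scramble; a thick edge marks the 11 that were called, all higher. Runs that end near base 90 hold most of the thick edges. Of the runs that reach base 119 only those of RNA5SP202 and RNA5SP358 are long enough to be drawn, and neither has a thick edge.

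Called copies were found in introns and outside genes alike. Of the 13 RNA5SP copies called higher, 8 lie in introns of protein-coding genes, 4 outside such genes and 1 over an exon, on 10 chromosomes, beside 35, 33 and 2 of the 70 copies not called. They match a median of 80.7% of RNA5S1, beside 82.4% for those not called and 78.2% for the 3 called lower. Their longest exact run had a median of 53 bases, beside 27 for those not called and 26 for those called lower. The 13 copies called higher fall into 8 sets with nearly equal counts, so they are not independent. The median of 53 lies within the set of RNA5SP225, RNA5SP352, RNA5SP502, RNA5SP259 and RNA5SP387, whose runs hold 51 to 53 bases.

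The other rRNAs and other short genes of RNA polymerase III give the surroundings of these values. Among 15 entries for the other rRNAs, which are cut from a precursor made by RNA polymerase I, the 5 RNA28SN entries were higher in tDR libraries and 0 were lower. Their counts are nearly equal, so they are read as 1 measurement, against the same backgrounds of 5.34% higher and 1.36% lower, shown by RNA28SN5 (log2 fold change 0.60, SE 0.16, edgeR adjusted p = 0.0233). The 10 entries of 18S and 5.8S rRNA were not called (0.27 with adjusted p = 0.227 for RNA18SN2, -0.01 with adjusted p = 0.976 for RNA5-8SN2). Of 19 tested RNA polymerase III genes 2 were higher and 0 lower, where 5.34% and 1.36% of all tested features were: RNY4, a Y RNA bound by Ro60 (0.76, SE 0.15, adjusted p = 0.0028), and RMRP, the RNA of RNase MRP, which cuts the rRNA precursor (0.62, SE 0.14, adjusted p = 0.0119). The median of these 19 was -0.08, in a list that ran from -0.48 (RNU6ATAC) to 0.76 (RNY4). It falls among U6 entries with nearly the same value (-0.080 for RNU6-1, -0.081 for RNU6-2, -0.085 for RNU6-7 and -0.086 for RNU6-8). That of the 15 rRNA entries was 0.27, which is the value of 18S rRNA, because the entries of each rRNA repeat nearly the same value. Neither is a median over independent measurements.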

How the data were processed

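Small RNA of HEK293 cells was counted in 4 tDR and 4 scramble libraries, grouped and numbered by their labels. The deposited counts are whole numbers per feature. The second deposited table is a normalized signal, which the authors made, as comparison of both tables shows, by dividing counts by 1 factor per library (another for tRNA features). Per the submitters' processing notes the build was hg38. For the aligner, counter, annotation and treatment of reads with several matches, the sources used here give nothing. 2 entries that are not genes (scr and scr2) stayed out of totals and tests.

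The test was edgeR's (version 4.0.16 in R 4.3.3), with TMM, the filterByExpr filter by group and a robust quasi-likelihood fit without covariates, Benjamini-Hochberg adjusted p below 0.05 over 1761 features. SE is the size of the log2 fold change over the square root of F, and the coefficient of variation was 19%. A second fit scaled libraries by their RNA5S1 count. No library was a copy of another: chi-square per degree of freedom was at least 15.6 in 12 replicate pairs. Shared runs and differing bases were found in GENCODE 29 transcripts with Biopython 1.88; the sequences are not reported here. Tested on simulated data for this comparison (1761 features), the fit called 76 of 97 features changed by a log2 of 1, 89 of 89 changed by 2 and 9 of 1530 unchanged ones. Alternatives were other scalings (DESeq2 1.42.0 size factors, total counts, TMM on microRNAs or without 5S), other filters, DESeq2, limma-voom (limma 3.58.1), limma on log2 of the deposited signal plus 1, a replicate block, equal or nearly equal entries taken once, and each library left out.

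The members, lists and groups were chosen with earlier results of these data known. Named were cluster genes once per set of counts, all called entries, the 5 copies with the highest counts, the 3 largest uncalled changes each way, and examples of the rRNA and RNA polymerase III lists. RNA5SP389, RNA5SP335, RNA5SP263 and the 5S_rRNA entries not called were named after their values were seen.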

Additional observations from a re-analysis of the deposited data

Results flagged for a closer look

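Among 82 groups of 4 libraries (41 named entries, 2 groups each), 3 held a library that stood far from the others of its group by Dixon's test, and chance alone gives about 1 in 20. In each it was scramble library 1, in copies whose tDR libraries lay below all scramble libraries. RNA5SP218, called lower, had 64.99 CPM there, and 45.11 to 46.48 CPM in the other scramble libraries. RNA5SP435, also called lower, had 44.81 CPM there, and 29.95 to 31.87 CPM in the others. RNA5SP263, which was not called, had 46.71 CPM there, and 30.42 to 32.10 CPM in the others. Without scramble library 1 no 5S entry was called lower.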

How the results depend on the processing

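The count of 14 higher 5S entries lay between 10 and 21 under 19 of 20 alternatives (10 to 16 with a library left out) and was 7 with the replicate block. The 3 lower calls were 5 by the DESeq2 Wald test and 0 with scaling on microRNAs, with the block and with nearly equal entries taken once, and 0 to 5 with a library left out. Relative to RNA5S1, the 16 higher entries were 10 with nearly equal entries taken once (a construction with fewer entries) and 11 to 19 with a library left out, and the 2 lower ones were 0 with the block and 0 to 3 with a library left out. The median 5S log2 fold change moved to 0.24 with scaling on microRNAs. The same scaling turned the uncalled values of RNA5S1 and RNA5S15 (both 0.24), RNA5S9 (0.23), RNA5SP202 (0.26), RNA5SP162 (0.18), RNA5SP358 (0.12), RNA5SP248 (0.025) and RNA5SP426 (0.039). With a library left out RNA5S9 ranged from -0.19 to 0.017 (without tDR library 4) and RNA5SP202 from -0.14 to 0.016 (without scramble library 1), none called. The difference in the RNA5S1 share of -0.13 percentage points was -0.28 with nearly equal entries taken once (exact p = 0.0571) and -0.16 to -0.11 with a library left out (p = 0.0286 without a tDR library, 0.0571 without a scramble library). The cause of these changes was not tested, beyond the fewer libraries or entries. Same-numbered libraries did not deviate together (correlations -0.34, -0.18, -0.26 and -0.12; 0 of 4 tDR libraries correlated best with their own number). Whether they share a culture or a batch is not given by the labels, and these correlations cannot show it. Among the 14 higher entries, RNA5SP225, RNA5SP352, RNA5SP502, RNA5SP259, RNA5SP387, RNA5SP257 and 5S_rRNA.18 kept their call under every alternative run.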
